A study of Mus musculus with 8 samples.

Results

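The immediate early and AP-1 genes were examined in 8 clonal mouse liver tumour lines. The gene list held 38 members: AP-1 subunits, EGR, NR4A and KLF transcription factors, early response effectors, and the phosphatases, mRNA decay proteins and NF-kappaB inhibitors that shut the response down. Of these, 37 were measured by a probe set that named 1 gene, among 22180 genes measured that way. Fosl1, an AP-1 subunit, lay in a probe set naming several genes and was not analysed here. For 36 of the 37 the mean over the lines lay above the median gene (5.66 log2), which does not test the label. The exception was Nr4a3, at 4.0 to 4.65.

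All lines came from C57BL/6 hepatocytes transformed by c-Myc and NrasG12V carried on the pCaMIN vector. The 4 intrahepatic cholangiocarcinoma (ICC) lines were made from tumours induced by electroporating the liver focally, and the 4 hepatocellular carcinoma (HCC) lines from tumours induced by hydrodynamic injection through the tail vein, so tumour type and delivery route cannot be told apart. ICC9, ICC10, HCC2.1 and HCC2.4 were labelled female, and ICC2.7, ICC2.9, HCC1 and HCC4 male, which gives 2 lines per type and sex. No line was treated: all grew in DMEM with 10% fetal calf serum at 7.5% CO2, and 100 ng of RNA from each went onto 1 Affymetrix array. Each line is 1 clone, and the labels do not say which lines share an animal or a tumour, so p-values measure the spread between these lines only.

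Immediate early genes are transcribed within minutes of a growth factor, serum or stress signal, without new protein synthesis. RAS and the MAP kinases ERK, JNK and p38 activate factors already bound at their promoters, among them SRF with its ternary complex partners, CREB and ATF proteins, and NF-kappaB. The first proteins made include FOS and JUN family members, which pair as AP-1, followed by inhibitors that return the pathway to rest. In liver the same genes are known for their rapid induction after partial hepatectomy, and cell handling and serum also induce them.

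Promoter letters are shown for 8 members on which the results below turn, or that carry a named type of site, each as the 150 bases that end just before the RefSeq start site, 5′ to 3′ on the gene's strand. Capitals mark matches on either strand to 6 motifs: the cAMP response element TGACGTCA, its core TGACG (which the full element contains), the AP-1 site TGANTCA, the EGR site GCGNGGGCG, the CArG box bound by SRF, and the kappaB site. Fos, Fosb, Nr4a1, Zfp36 and Nfkbia are members with their highest values in the same 4 lines, Srf encodes the factor that binds CArG boxes, and Plk2 and Zfp36l1 passed a test. Sequences and positions are from RefSeq on GRCm38.p6.
Fos promoter (chr12:85473740-85473889, plus strand): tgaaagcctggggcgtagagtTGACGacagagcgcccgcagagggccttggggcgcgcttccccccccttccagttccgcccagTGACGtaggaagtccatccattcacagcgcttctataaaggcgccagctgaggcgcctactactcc
Fosb promoter (chr7:19310046-19310195, minus strand): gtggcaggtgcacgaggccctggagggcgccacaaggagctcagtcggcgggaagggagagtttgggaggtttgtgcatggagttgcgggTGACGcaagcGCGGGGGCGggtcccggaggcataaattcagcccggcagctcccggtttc
Nr4a1 promoter (chr15:101266696-101266845, plus strand): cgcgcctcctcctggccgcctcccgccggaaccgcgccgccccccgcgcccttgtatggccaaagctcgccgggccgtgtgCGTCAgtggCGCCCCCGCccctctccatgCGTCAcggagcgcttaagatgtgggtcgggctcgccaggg
Zfp36 promoter (chr7:28379229-28379378, minus strand): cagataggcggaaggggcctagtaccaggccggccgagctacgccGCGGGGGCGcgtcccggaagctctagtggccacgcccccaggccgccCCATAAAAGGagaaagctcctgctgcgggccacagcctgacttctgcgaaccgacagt
Nfkbia promoter (chr12:55492648-55492797, minus strand): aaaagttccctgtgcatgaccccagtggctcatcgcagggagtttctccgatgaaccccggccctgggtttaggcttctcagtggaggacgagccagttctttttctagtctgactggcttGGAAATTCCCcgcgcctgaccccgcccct
Srf promoter (chr17:46556163-46556312, minus strand): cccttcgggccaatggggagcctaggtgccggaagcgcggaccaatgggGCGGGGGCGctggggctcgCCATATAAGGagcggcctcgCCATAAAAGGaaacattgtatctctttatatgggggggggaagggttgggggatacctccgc
Plk2 promoter (chr13:110394894-110395043, plus strand): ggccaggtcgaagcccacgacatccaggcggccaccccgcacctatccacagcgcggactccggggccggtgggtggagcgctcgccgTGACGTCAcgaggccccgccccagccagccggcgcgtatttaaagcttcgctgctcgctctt
Zfp36l1 promoter (chr12:80113014-80113163, minus strand): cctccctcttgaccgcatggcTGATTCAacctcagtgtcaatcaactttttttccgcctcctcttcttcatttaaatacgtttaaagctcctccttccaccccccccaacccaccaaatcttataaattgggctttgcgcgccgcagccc

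The RefSeq promoter table matched 31 of the 38 members by symbol, and its windows run from 250 bases before to 50 after the start. Egr1, Egr3, Klf10, Ier2, Arc, Zfp36l2 and Fosl1 had no window and were not searched. Sites outside the windows were not searched either, so a lack of matches does not mean that a gene lacks a site. The TGACG core stood in a promoter of 21 of these 31 members (67.7%) against 23.05% of all 27025 genes with a window of that length. EGR sites were found in 12 members (38.7%, against 6.27% of genes), kappaB sites in 8 (25.8%, against 5.14%), and the full cAMP response element in 4 (12.9%, against 2.03%: Maff, Btg2, Plk2 and Dusp1). CArG boxes stood in Egr2, Srf and Zfp36 (9.7%, against 1.81%). AP-1 sites stood in Csrnp1, Zfp36l1 and Tnfaip3, a share of 9.7% beside 8.97% of genes. These matches describe the letters of the windows and not binding, and the genes compared were not matched for level or base composition.

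The members differed widely between the lines. Their median standard deviation over the 8 lines was 0.47 log2, compared with 0.19 for all genes and 0.20 for genes above the median level. In 27 of the 37 the highest and lowest line lay at least 1 log2 unit apart, as did 16.3% of all genes. The mean over the members was 9.21 in ICC9, 9.65 in ICC10, 8.80 in ICC2.7, 8.44 in ICC2.9, 9.51 in HCC1, 9.47 in HCC4, 9.21 in HCC2.1 and 9.0 in HCC2.4. ICC10 was thus the highest line and ICC2.9 the lowest, 1.21 log2 (2.31-fold) apart, and the HCC lines lay between them.

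**Figure D1:**
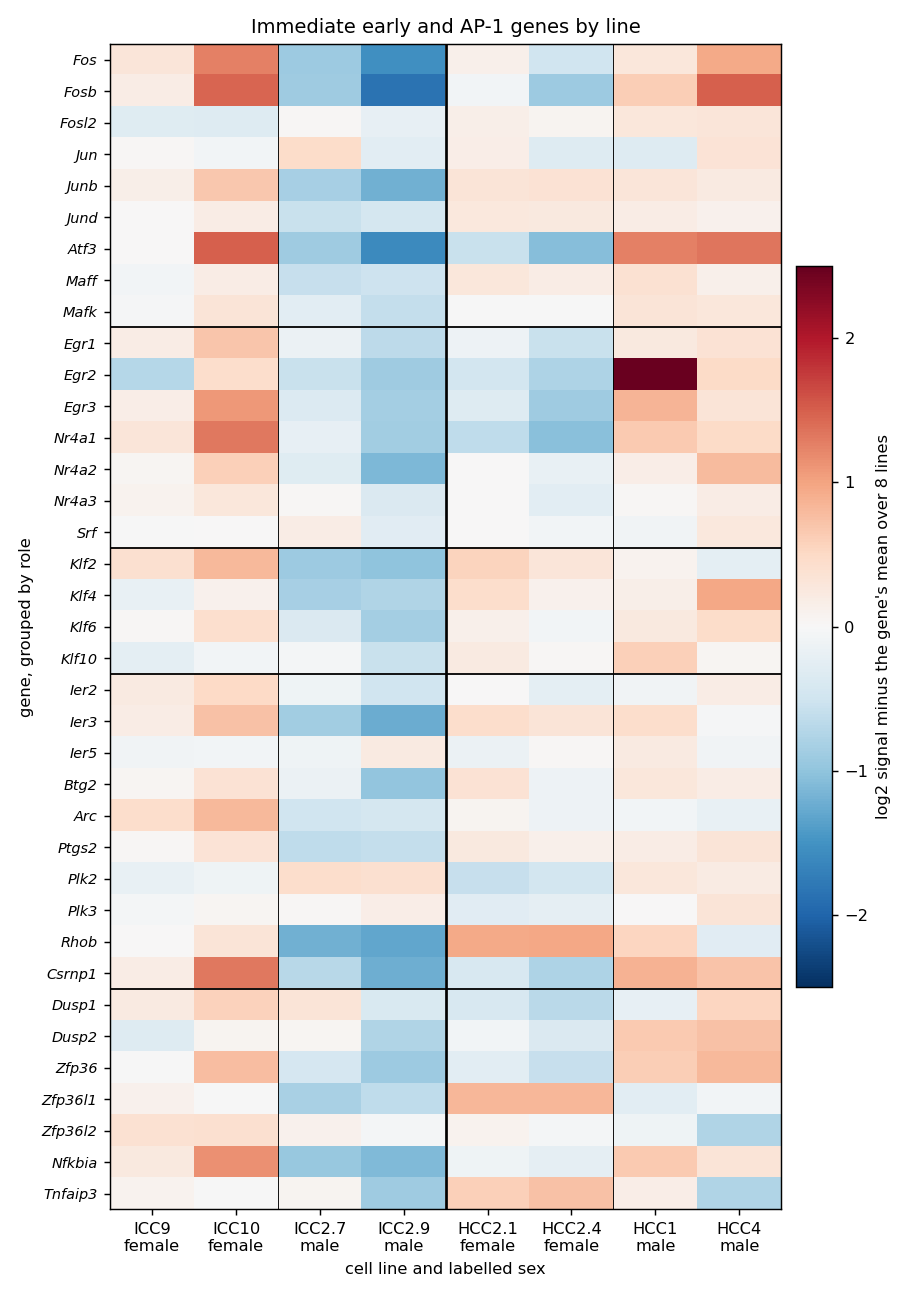
Colour gives the log2 signal of each of 37 genes (rows, grouped by role from AP-1 subunits at the top to feedback genes at the bottom) minus that gene's mean over the 8 lines (columns, with labelled sex). Most rows are red in ICC10 and blue in ICC2.9, and Egr2 is darkest in HCC1.

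The extremes were concentrated in a few lines. ICC10 held the highest value of 18 of the 37 members, against 14.5% of all genes, and HCC4 that of 9, against 16.1%. ICC2.9 held the lowest value of 22 members, against 16.1% of genes, and ICC2.7 that of 6, against 15.4%. ICC9 was neither the highest nor the lowest line for any member; it was the highest for 2.33% of all genes and the lowest for 2.5%. The 8 deposited columns span only 7 directions, and the missing direction weighs most on ICC9 (0.7819) and next on ICC10 (-0.5378). For every member the ICC9 value equals a weighted sum of the other lines to within 0.0079 log2, with a weight of 0.688 on ICC10. Without ICC9, 18 members were still highest in ICC10 (15.9% of genes).

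The mean over the 9 AP-1 subunits ran from 8.65 in ICC2.9 to 10.13 in ICC10 and HCC4. Fos, the partner that gives AP-1 its transient activity, stood at 10.09 in ICC9, 11.04 in ICC10, 8.87 in ICC2.7, 8.26 in ICC2.9, 10.07 in HCC1, 10.74 in HCC4, 9.92 in HCC2.1 and 9.28 in HCC2.4. The female-labelled ICC lines and the male-labelled HCC lines were high, and both ICC2 lines lay below every other line. Fosb, its close relative, read 10.74, 12.01, 9.68 and 8.71 in ICC9, ICC10, ICC2.7 and ICC2.9, and 11.18, 12.05, 10.49 and 9.65 in HCC1, HCC4, HCC2.1 and HCC2.4. Its range of 3.34 log2 was 10.1-fold, with ICC10 and HCC4 almost level at the top.

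Atf3, a stress-induced AP-1 partner, had the largest standard deviation of the members (1.22 log2). It read 9.72, 11.21, 8.82 and 8.12 in ICC9, ICC10, ICC2.7 and ICC2.9, and 10.97, 11.04, 9.16 and 8.65 in HCC1, HCC4, HCC2.1 and HCC2.4. HCC1, HCC4 and ICC10 were close together at the top, with ICC9 more than 1 log2 unit below them. Junb, a JUN protein that can restrain proliferation, stood at 10.67, 11.19, 9.69 and 9.31 in the ICC lines, in the same order, and at 10.82, 10.74, 10.84 and 10.87 in the HCC lines. The standard deviation of Junb was 0.87 over the ICC lines and 0.06 over the HCC lines, with both ICC2 lines below all others.

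Not every subunit followed this order, and Jun was an exception. Jun, the main FOS partner, read 10.59, 10.50, 11.03 and 10.30 in ICC9, ICC10, ICC2.7 and ICC2.9, and 10.24, 10.90, 10.73 and 10.25 in HCC1, HCC4, HCC2.1 and HCC2.4. It was highest in ICC2.7, a line in which Fos and Fosb were low, and the types overlapped throughout. Jund, the JUN protein least dependent on stimulation, read 9.97, 10.15, 9.42 and 9.53 in the ICC lines and 10.16, 10.08, 10.23 and 10.21 in the HCC lines. A dimmer Jund probe set gave ICC and HCC means of 7.05 and 7.31, in the same order as the one used. Maff, a small MAF protein that lacks a transactivation domain, read 7.40, 7.65, 6.89 and 6.95 in the ICC lines and 7.85, 7.59, 7.76 and 7.66 in the HCC lines. Mafk, its relative, ran from 7.37 in ICC2.9 to 8.29 in ICC10 and HCC1. In Jund, Maff and Mafk both ICC2 lines lay below all others, as for Fos and Junb.

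**Figure D2:**
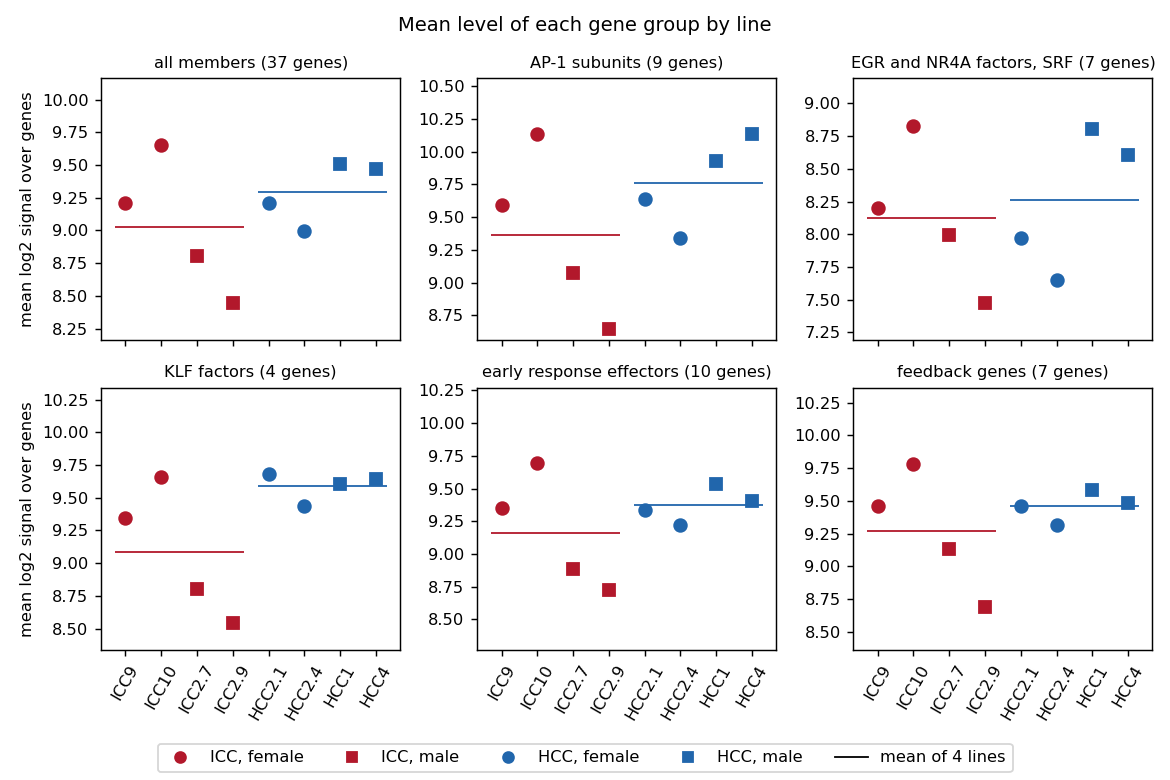
Each panel plots the mean log2 signal over a group of genes in each of the 8 lines; circles are female-labelled and squares male-labelled lines, and horizontal lines are the means of 4 lines. Over all 37 genes the lines run from 8.44 in ICC2.9 to 9.65 in ICC10.

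The EGR and NR4A factors and SRF had group means of 7.47 in ICC2.9 to 8.83 in ICC10. Egr1, the zinc finger factor that is a classic SRF target, stood at 10.84, 11.36, 10.51 and 10.01 in ICC9, ICC10, ICC2.7 and ICC2.9, and at 10.90, 11.03, 10.54 and 10.11 in HCC1, HCC4, HCC2.1 and HCC2.4. The 4 highest lines were again ICC9, ICC10, HCC1 and HCC4. Egr2, a related factor, read 7.41, 8.57, 7.57 and 7.24 in the ICC lines and 10.59, 8.61, 7.66 and 7.36 in the HCC lines. HCC1 stood apart, 1.98 log2 above HCC4, its counterpart of the same type and sex. Egr3 ran from 7.31 in HCC2.4 to 9.29 in ICC10.

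Nr4a1, an orphan nuclear receptor whose promoter above holds a pair of TGACG cores, read 9.85, 10.87, 9.34 and 8.67 in the ICC lines and 10.20, 10.02, 8.92 and 8.50 in the HCC lines. Its 4 highest lines were those of Egr1. Nr4a2 ran from 6.80 in ICC2.9 to 8.72 in HCC4. Srf itself varied little, from 8.22 in ICC2.9 to 8.77 in HCC4, a range of 0.55 log2.

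The KLF factors had means of 9.44 to 9.68 in the HCC lines and 8.55 to 9.66 in the ICC lines. Klf4, a zinc finger factor known from epithelial differentiation, stood at 8.63, 8.92, 7.98 and 8.05 in ICC9, ICC10, ICC2.7 and ICC2.9, and at 8.96, 9.77, 9.25 and 8.92 in HCC1, HCC4, HCC2.1 and HCC2.4. The highest ICC line met the lowest HCC line at 8.92. Klf10, a TGF-beta-inducible factor, read 9.03, 9.20, 9.22 and 8.71 in the ICC lines and 9.86, 9.31, 9.50 and 9.30 in the HCC lines, so that every ICC line lay below every HCC line. Klf2 ran from 6.94 in ICC2.9 to 8.75 in ICC10, and Klf6 from 10.48 in ICC2.9 to 11.80 in HCC4.

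Among the 10 effectors, Csrnp1, a nuclear protein induced with the early response, varied most together with Rhob. Csrnp1 read 7.63, 8.77, 6.74 and 6.22 in ICC9, ICC10, ICC2.7 and ICC2.9, and 8.31, 8.15, 7.05 and 6.67 in HCC1, HCC4, HCC2.1 and HCC2.4. The order was close to that of Atf3, with ICC10, HCC1 and HCC4 highest. Rhob, a short-lived small GTPase, stood at 10.54, 10.84, 9.32 and 9.22 in the ICC lines and at 11.06, 10.25, 11.47 and 11.50 in the HCC lines. Here the female-labelled HCC lines were the highest, unlike for Fos or Atf3.

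Ier3, a regulator of cell survival, read 11.81, 12.35, 10.76 and 10.38 in the ICC lines and 12.07, 11.60, 12.06 and 11.95 in the HCC lines. Ptgs2, the inducible cyclooxygenase, read 11.93, 12.23, 11.25 and 11.30 in the ICC lines and 12.07, 12.21, 12.13 and 12.03 in the HCC lines. Both genes shared the pattern of Junb: 2 low ICC2 lines and 4 HCC lines close together. Plk2, a kinase that responds to stress, read 9.30, 9.38, 9.93 and 9.89 in the ICC lines and 9.78, 9.70, 8.92 and 9.04 in the HCC lines, and was higher in both ICC2 lines than in ICC9 and ICC10. Ier2, Ier5, Btg2, Arc and Plk3 had ranges of 0.37 log2 (Ier5) to 1.35 log2 (Btg2, an antiproliferative gene).

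The feedback genes had means of 8.69 in ICC2.9 to 9.78 in ICC10. Dusp1, a phosphatase that inactivates MAP kinases, read 9.92, 10.27, 10.02 and 9.32 in ICC9, ICC10, ICC2.7 and ICC2.9, and 9.50, 10.23, 9.29 and 9.02 in HCC1, HCC4, HCC2.1 and HCC2.4. The types overlapped widely. Dusp2, a related phosphatase, read 8.98, 9.38, 9.36 and 8.55 in the ICC lines and 9.96, 10.04, 9.24 and 8.95 in the HCC lines, with HCC1 and HCC4 highest. Zfp36, which drives the decay of AU-rich mRNAs, read 9.24, 10.02, 8.83 and 8.35 in the ICC lines and 9.87, 10.06, 9.0 and 8.68 in the HCC lines, in nearly the order of Atf3. Its relatives differed from it: Zfp36l1 read 10.45, 10.34, 9.53 and 9.71 in the ICC lines and 10.08, 10.27, 11.18 and 11.18 in the HCC lines, and Zfp36l2 read 11.50, 11.52, 11.24 and 11.07 in the ICC lines and 11.02, 10.37, 11.21 and 11.07 in the HCC lines.

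Nfkbia, the NF-kappaB inhibitor whose own promoter carries the kappaB site shown above, stood at 9.04, 9.94, 7.84 and 7.69 in the ICC lines and at 9.44, 9.12, 8.68 and 8.56 in the HCC lines. Again ICC10 was highest and both ICC2 lines lowest. Tnfaip3, which also restrains NF-kappaB, ran from 6.14 in ICC2.9 to 7.77 in HCC2.4.

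**Figure D3:**
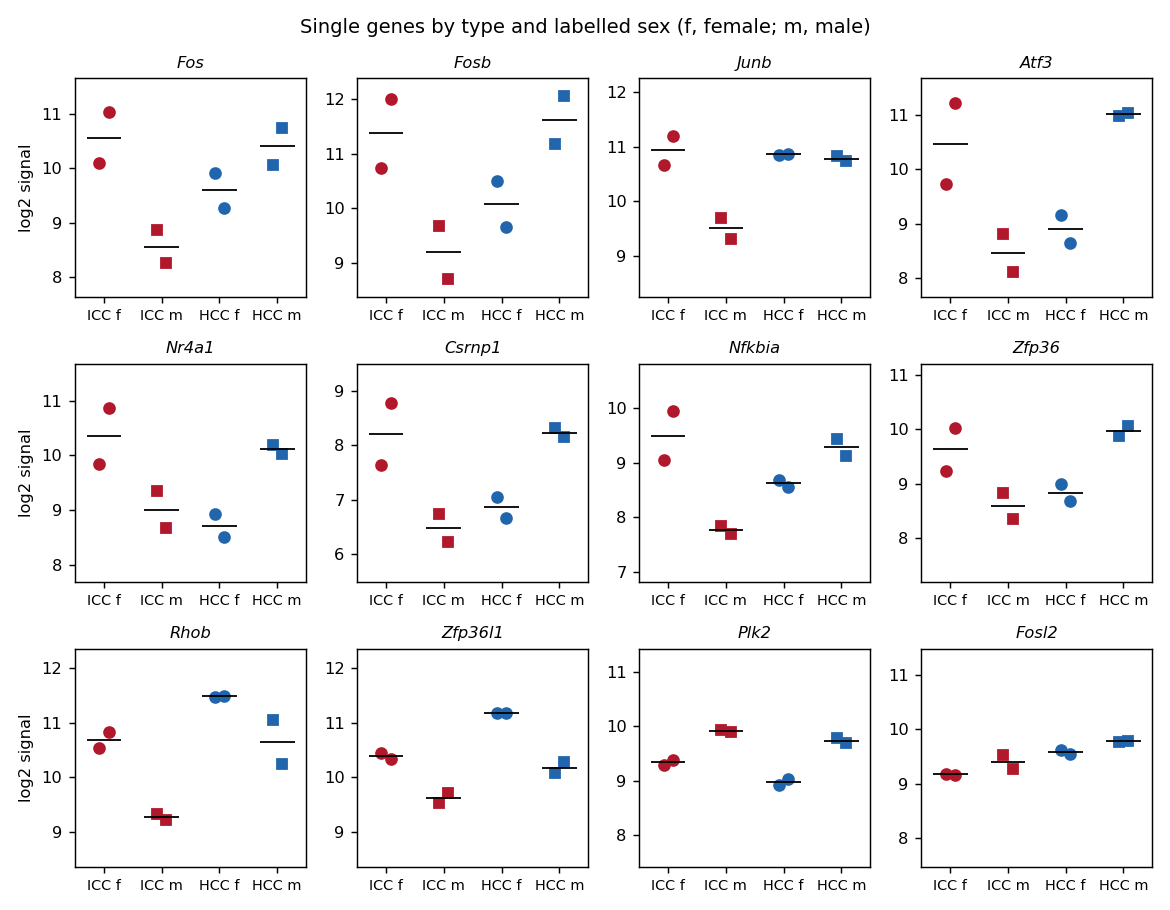
Log2 signal of 12 genes in the lines of each type and labelled sex (points; red ICC, blue HCC; circles female, squares male), with the mean of each pair as a line; every panel spans 4 log2 units. Fos, Fosb, Atf3, Nr4a1, Csrnp1, Nfkbia and Zfp36 are high in female ICC and male HCC lines, while Zfp36l1 and Rhob are higher in the female lines of each type.

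The design's main comparison was ICC against HCC. No member passed limma's moderated test (Benjamini-Hochberg adjusted p under 0.05 over all genes), where 0.261% of all genes did, and the smallest adjusted p of a member was 0.168. At an unadjusted p under 0.05 there were 6 members, beside 14.1% of all genes. All 6 were lower in ICC (Fosl2, Klf4, Maff, Klf10, Rhob and Jund), beside 7.04% of genes in that direction. The median difference of the members was -0.36 log2 against 0.00 for all genes, and 26 members were negative (49.1% of all genes) and 11 positive (50.2%). Over the module the ICC lines averaged 9.03 ± 0.52 (SD, n = 4) and the HCC lines 9.30 ± 0.24 (SD, n = 4), a difference of -0.27 that is smaller than the spread among the ICC lines. Without ICC9 the ICC mean was 8.96 ± 0.62 (SD, n = 3).

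Fosl2 and Klf10 were the members whose types did not overlap, beside 8.63% of all genes. Both were lower in ICC, beside 4.44% of genes in that direction. Fosl2, a more stably expressed FOS protein, read 9.18, 9.16, 9.52 and 9.27 in ICC9, ICC10, ICC2.7 and ICC2.9 against 9.77, 9.79, 9.62 and 9.54 in HCC1, HCC4, HCC2.1 and HCC2.4. Its means were 9.28 ± 0.17 and 9.68 ± 0.12 (SD, n = 4 each), a difference of -0.40 (SE 0.11). Klf4 differed by -0.83 (SE 0.26, limma adjusted p = 0.209), Klf10 by -0.45 (SE 0.16, adjusted p = 0.258), Maff by -0.49 (SE 0.17, adjusted p = 0.251) and Rhob by -1.09 (SE 0.42, adjusted p = 0.298). Zfp36l2, at 0.42 (SE 0.19, adjusted p = 0.372), was the one gene higher in ICC among the 10 members with the smallest p. With sex as a covariate, limma called Rhob and Zfp36l1 lower in ICC (adjusted p = 0.0393 and 0.0165), beside 1.93% of all genes. Neither was called in that fit without ICC9 (adjusted p = 0.153 and 0.0966, beside 0.104% of genes) or with the missing direction as a further term (adjusted p = 0.0953 and 0.0577).

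Between female- and male-labelled lines, 3 members passed the test. Rhob was 1.13 log2 higher in female than in male lines (2.18-fold, SE 0.20) and Zfp36l1 0.89 higher (1.85-fold, SE 0.09), while Plk2 was lower, with a difference of -0.67 (SE 0.08). With tumour type as a covariate, limma's adjusted p was 0.026 for Rhob, 0.0039 for Zfp36l1 and 0.0068 for Plk2, so 3 of 37 members were called beside 2.94% of all genes, and 12 had an unadjusted p under 0.05 beside 17.5%. Zfp36l1 was higher in every female than in every male line, at 10.34 to 11.18 against 9.53 to 10.27, and Plk2 was lower in every female line, at 8.92 to 9.38 against 9.70 to 9.93. Klf2, an endothelial and quiescence factor, also separated the sexes, at 8.25 to 8.75 against 6.94 to 8.03, with a difference of 1.03 and an adjusted p of 0.0525. Lack of overlap was seen in these 3 members and in 8.76% of all genes.

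With lines sharing a type and a sex as a random block, Plk2 and Zfp36l1 were still called (limma adjusted p = 0.0151 and 0.00888) and Rhob was not (0.0551). That fit called 1.51% of all genes. When the 2 lines sharing a type and a sex were averaged first, none of the 3 was called by limma (adjusted p = 0.283 for Rhob, 0.277 for Zfp36l1 and 0.405 for Plk2). The averaged fit called only 0.0271% of all genes, so the loss of these calls says little about the 3 members. Leaving out ICC9 left Zfp36l1 alone called, beside 0.658% of all genes, with limma adjusted p of 0.0505 for Plk2 and 0.0985 for Rhob. Rhob also missed the threshold without ICC10, ICC2.7, ICC2.9, HCC4, HCC2.1 or HCC2.4, at adjusted p of 0.0506 to 0.0876. A dimmer Zfp36l1 probe set gave the same direction, with a difference of 0.57, but the sexes overlapped in it. There the female ICC9 and ICC10 read 7.0 and 6.98, below the male HCC1 and HCC4 at 7.05 and 7.24.

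The difference between the types was also taken within each labelled sex. In the female lines the members' median difference, ICC minus HCC, was 0.19 log2, with 27 positive and 9 negative. In the male lines it was -0.80, with 3 positive and 34 negative. For all genes the medians were 0.01 and -0.01. The module mean differed by 0.33 in the female lines (0.55 without ICC9) and by -0.87 in the male lines. Fitted on the female lines alone, limma called Rhob (-0.80), Zfp36l1 (-0.79) and Tnfaip3 (-0.64) beside 3.14% of all genes. Without ICC9 the differences were -0.645 for Rhob and -0.84 for Zfp36l1. ICC10 was then the only ICC line, so no call was drawn from that fit. On the male lines alone limma called Atf3 (-2.54), Csrnp1 (-1.75) and Nfkbia (-1.51) beside 0.902%.

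**Figure D4:**
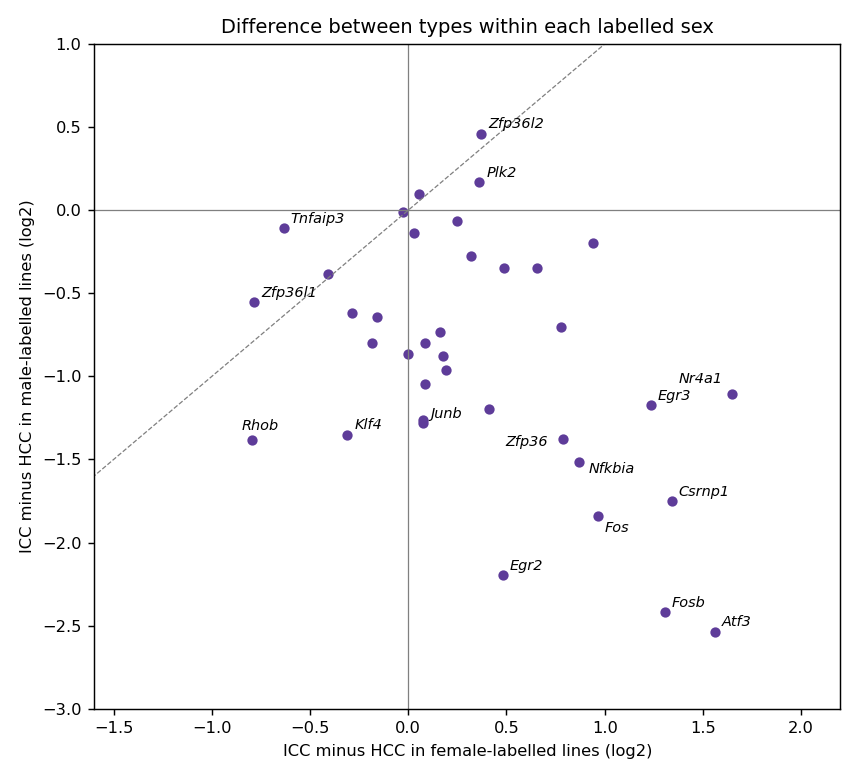
Each point is 1 of 37 genes, with the log2 difference ICC minus HCC in the female-labelled lines (x axis) and in the male-labelled lines (y axis); the dashed line marks equal differences. Most points lie below the dashed line, with Atf3 and Fosb at the lower right.

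The difference of these differences was tested as an interaction in limma. No member and no gene passed (the smallest adjusted p was 0.113), while 25 of the 37 members had an unadjusted p under 0.05, all with a positive value, beside 9.33% of all genes in that direction. The members' median was 1.0 log2, against 0.02 for all genes, and 31 were positive, beside 51.8% of genes. Atf3 had the largest value, at 4.10 (SE 0.65, adjusted p = 0.113): ICC minus HCC was 1.56 in the female and -2.54 in the male lines. Fosb followed at 3.72, Csrnp1 at 3.09, Fos at 2.81, Nr4a1 at 2.75, Egr2 at 2.67, Egr3 at 2.41 and Nfkbia at 2.38.

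In 12 members both female ICC lines lay above both female HCC lines, and both male ICC lines below both male HCC lines; 5.19% of all genes did so. These were Fos, Fosb, Atf3, Egr1, Egr3, Nr4a1, Nr4a2, Ier2, Arc, Csrnp1, Zfp36 and Nfkbia. The opposite crossing occurred in 0 members and in 5.96% of genes. Without ICC9 there were 20 such members, beside 10.8% of genes.

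When ICC9 was left out, limma called 6 members in the interaction, beside 1.07% of all genes: Atf3, Csrnp1, Junb, Nfkbia, Nr4a1 and Zfp36. Atf3 then had a value of 4.84 (adjusted p = 0.0109) and Nfkbia 2.83 (adjusted p = 0.00978). In that fit ICC10 stood alone for its type and sex and was assumed to vary like the other lines. A term for the direction missing from the 8 columns, added after the values were seen, gave 8 called members beside 1.15% of genes: the same 6 together with Fos (3.18, limma adjusted p = 0.0440) and Fosb (4.23, adjusted p = 0.0471). That direction weighs most on ICC9 (0.7819), so this fit resembles the one without ICC9 and is no separate result.

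The same contrast also compares lines by name. ICC9, ICC10, HCC1 and HCC4 carry plain numbers, and ICC2.7, ICC2.9, HCC2.1 and HCC2.4 carry a prefix 2. whose meaning the labels do not give. A dependence of the type difference on sex and a difference between these 2 sets of names cannot be told apart in this design, a point noticed after the values were seen. The module mean was 9.46 in the plain-named and 8.86 in the prefixed lines. In 10 members every plain-named line lay above every prefixed one (Fos, Fosb, Atf3, Egr1, Egr3, Nr4a1, Nr4a2, Csrnp1, Zfp36 and Nfkbia), beside 2.45% of all genes, and in 0 members the reverse, beside 3.13%. Without ICC9 there were 14 such members, beside 6.35% of genes.

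Lines that share a type and a sex were compared pair by pair. Since ICC9 is a weighted sum with positive weights on the prefixed and negative weights on the HCC plain-named lines, ICC10 minus ICC9 restates much of the contrast above and is no separate result. ICC10 exceeded ICC9 in 33 of the 37 members, by a median of 0.34 log2, where 50.6% of all genes were higher in ICC10. ICC10 was at least 1 log2 unit higher in Atf3 (1.49), Fosb (1.27), Egr2 (1.16), Csrnp1 (1.14) and Nr4a1 (1.02), 5 members beside 0.126% of all genes. These 5 made up 17.9% of the 28 genes at least 1 log2 unit higher in ICC10. At least 1 log2 unit lower in ICC10 were 0 members and 41 of all genes. With 1 array per line no test of this difference was possible.

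In the other pairs at most 1 member differed by 1 log2 unit. ICC2.7 exceeded ICC2.9 in 29 members (49.9% of genes) by a median of 0.38, with 14 at least 0.5 higher in ICC2.7 beside 4.66% of genes. HCC2.1 exceeded HCC2.4 in 29 (45.7% of genes), by a median of 0.20, with 4 at least 0.5 higher in HCC2.1 beside 2.99% of genes. HCC4 and HCC1 had no common direction, at a median of -0.03, with 18 members positive (48.3% of genes) and 19 negative, and Egr2 was the member at least 1 log2 unit lower in HCC4 (1.57% of genes).

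**Figure D5:**
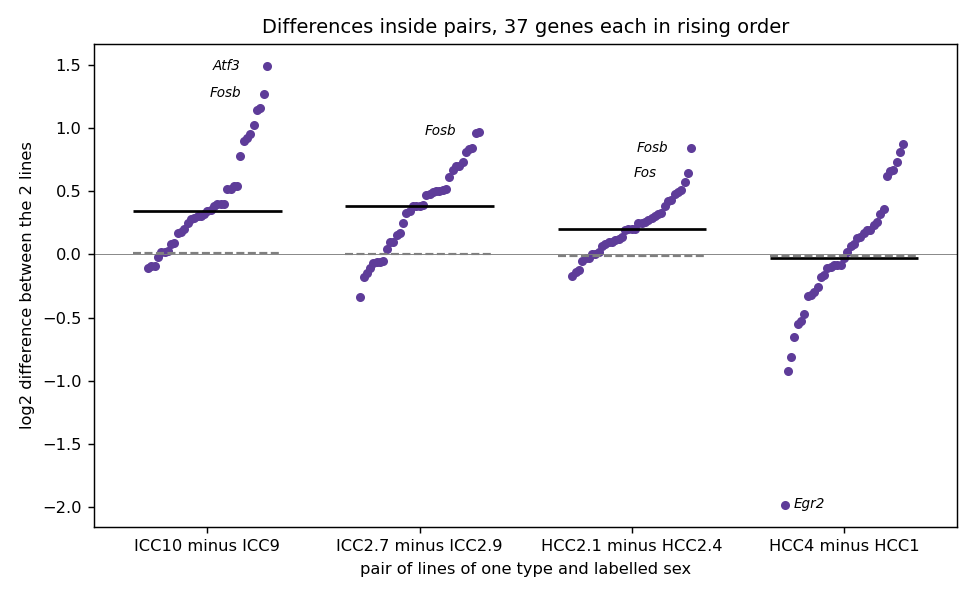
Points are the log2 differences of 37 genes between the 2 lines of each type and labelled sex, in rising order; solid lines mark their median and dashed lines the median of all genes. The ICC10 minus ICC9 points reach 1.49 (Atf3), and Egr2 is at -1.98 in HCC4 minus HCC1.

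Genes of the surrounding pathways were tested in the same fits. The 11 measured AP-1 dimer partners and other bZIP genes had means of 7.02 to 7.10 in the 8 lines, and none was called in any of the 3 comparisons; Creb5, a CRE-binding factor, differed by -0.70 between ICC and HCC (limma adjusted p = 0.240) and Atf7 by 0.31 (adjusted p = 0.188). None of the 8 SRF and EGR partners was called either, and the smallest p between the types belonged to Nab1, an EGR co-repressor (0.35, adjusted p = 0.316), and Elk4, a ternary complex factor (0.25, adjusted p = 0.339). Of the 8 upstream MAP kinase genes, Rps6ka3, an ERK-activated kinase, was 0.80 higher in female lines (SE 0.10, limma adjusted p = 0.00745). It was the 1 gene of the 8 called between the sexes, beside 2.94% of all genes. None was called between the types, where Rps6ka5 differed by 0.31 and Map2k1 by -0.23. None of the 11 NF-kappaB genes was called, and Nfkbie differed by -0.17 and Bcl3 by -0.38. At an unadjusted p under 0.05, the counts for ICC against HCC were 2 of 11, 2 of 8, 1 of 8 and 0 of 11 in these lists, beside 14.1% of all genes.

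The means of 23 other serum-responsive genes ran from 9.23 in ICC2.9 to 10.07 in HCC1. A positive interaction value was seen in 19 of the 23, beside 51.8% of all genes. For ICC against HCC, 7 of the 23 had an unadjusted limma p under 0.05, beside 14.1% of all genes. Between female and male lines, Gem, a small GTPase, was 1.28 higher (limma adjusted p = 0.00483) and Btg1, an antiproliferative gene, 0.57 higher (adjusted p = 0.00957). F3, tissue factor, was lower, at -1.38 (adjusted p = 0.0496). No other gene of the 23 was called in that comparison, which called 2.94% of all genes. Ccn2, a YAP and SRF target, was the nearest to a call between the types, at -1.62 (SE 0.31, adjusted p = 0.0806); it read 9.53, 9.62, 8.98 and 8.27 in the ICC lines and 10.15, 10.67, 10.97 and 11.07 in the HCC lines.

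Stress and proliferation genes also differed between the lines. None of 12 heat shock and culture stress genes was called. Between the types Txnip differed by -1.34 (limma adjusted p = 0.188) and Hspa1a by -0.73 (adjusted p = 0.225). At an unadjusted p under 0.05 there were 5 of the 12 between the types, beside 14.1% of all genes. In the interaction 7 had an unadjusted p under 0.05, beside 20.1% of all genes. These went both ways, with Hspa1a, Hspa1b, Hspb1 and Bag3 positive and Ddit3, Trib3 and Txnip negative. Among them Hspa1b, an inducible chaperone, read 8.19, 9.01, 5.94 and 6.29 in the ICC lines and 8.59, 9.04, 8.99 and 8.91 in the HCC lines. Of 11 cell cycle genes, 1 was called between the types, beside 0.261% of all genes. This was Ccnb2, higher in ICC by 1.17 (limma adjusted p = 0.0140), and Mki67 differed by 1.25 (adjusted p = 0.0551). All 11 were higher in ICC with an unadjusted limma p under 0.05, beside 14.1% of all genes in either direction. The list's means were 8.84 to 9.37 in ICC and 7.77 to 8.61 in HCC lines. The part of these states in the module's differences was not tested.

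Markers of other cells were checked in the same lines. The 6 leukocyte and macrophage markers had means of 4.74 to 5.51, below the median gene, with Ptprc at 3.40 to 3.99; Cd68 alone was high, at 7.31 in ICC2.7 to 10.21 in HCC1. The 6 fibroblast and stellate markers had means of 6.54 in ICC2.7 and 6.20 in ICC2.9 against 5.29 to 5.61 in the other lines, with Pdgfrb at 10.55 and 9.89 in these ICC2 lines, where the module was lowest. Hepatocyte markers had means of 4.72 to 5.20, below the median gene in every line. Bile duct markers had means of 6.11 to 7.08, and Krt19 was 2.19 higher in female lines (limma adjusted p = 0.00483). It was the 1 of 5 measured bile duct markers called between the sexes, beside 2.94% of all genes. No marker can be at 0 on this log2 scale, and the part of these markers in the module's differences was not tested.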

How the data were processed

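Expression was measured in 8 lines with 1 array each. The deposited values are log2 signals normalized by the authors with RMA in oligo, per the submitters' processing notes, with versions not given in the sources used here. Array medians were 5.02 to 5.09 log2. Precision is limited by the small number of arrays. Of 39993 probe sets, 23521 named 1 gene, 1814 several and 14658 none in the platform annotation; per gene the probe set with the highest mean was used. limma 3.58.1 in R 4.3.3 (lmFit, eBayes, two-sided, Benjamini-Hochberg over 22180 genes, threshold 0.05) tested ICC against HCC, female against male lines with type as covariate, and the type by sex interaction; it was tested on simulated data. Tables, promoter searches and plots were made in Python 3.11.15. Alternatives were eBayes with trend, a level filter, quantile and median scaling, averaged probe sets, sex as covariate, single sexes and each line left out. Members and lists were chosen with earlier results of these data known. Values in every line are given for called members, the 10 with the smallest p between types, the 6 with the largest standard deviation and Fos, Jun, Junb, Egr1, Atf3, Ier3 and Dusp1; the promoters shown and Nr4a1, Zfp36 and Nfkbia were chosen after their values were seen. In related lists the called genes, or those with the smallest p, are named; Cd68, Ptprc, Pdgfrb and Krt19 and the chaperone Hspa1b were chosen after their values were seen. Fosl1 is not analysed here. No files other than the value table were used for levels.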

Additional observations from a re-analysis of the deposited data

Results flagged for a closer look

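In 74 groups of 4 lines (37 members in each type), 2 held a line far from the other three by Dixon's criterion, which chance meets in about 1 group in 20. Ier5 was highest in ICC2.9 at 7.83, with the other ICC lines at 7.49 to 7.53. Tnfaip3 was lowest in ICC2.9 at 6.14, with the others at 7.02 to 7.11.

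For 12 members every ICC line lay above the HCC lines among female-labelled lines and below them among male-labelled lines, beside 5.19% of all genes. The opposite crossing occurred in 5.96% of genes. This contrast cannot be told apart from that between plain-named and prefixed lines. The differences between the 2 type differences were 4.1 for Atf3, 3.72 for Fosb, 3.09 for Csrnp1, 2.8 for Fos, 2.76 for Nr4a1, 2.41 for Egr3, 2.38 for Nfkbia, 2.16 for Zfp36, 1.6 for Nr4a2, 1.48 for Egr1, 1.0 for Arc and 0.83 for Ier2. None passed limma's interaction test (smallest adjusted p = 0.113).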

How the results depend on the processing

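ICC against HCC called 0 members under every scaling, filter and line left out. With sex as a covariate it called 2 (Rhob, limma adjusted p = 0.0393, and Zfp36l1, 0.0165), beside 1.93% of all genes, and 0 without ICC9. It called 3 among female lines alone (Rhob, Zfp36l1 and Tnfaip3, beside 3.14%) and 3 among male lines alone (Atf3, Csrnp1 and Nfkbia, beside 0.902%). Fits without ICC9 among female lines or with sex as covariate were added after seeing the data. At an unadjusted p under 0.05 there were 6 members, beside 14.1% of all genes. The module mean difference of -0.27 became 0.327 in female (0.546 without ICC9) and -0.868 in male lines, and ran from -0.479 to -0.076 with each line left out. In female lines Dusp2 turned from -0.48 to 0.085 (adjusted p = 0.793), or 0.285 without ICC9, where Ptgs2 turned to 0.15. Female against male called 3 members, 1 to 4 with a line left out, and 12 at an unadjusted p under 0.05. A random block or the missing direction as a term left 2 (Plk2 and Zfp36l1), beside 1.51% and 1.26% of all genes. Averaging lines of one type and sex left 0, beside 0.0271% of all genes. Block and averaging were chosen after seeing the data. The interaction called 0, 0 to 6 with a line left out (6 without ICC9), 8 with the missing direction as a term (chosen after seeing the data) and 25 at an unadjusted p under 0.05. For all genes, ICC against HCC called 58, and 2 to 109 with a line left out. For single members, 374 alternative values kept direction and call, 18 gained and 13 lost a call and 3 reversed; the causes were not tested. No paired analysis was possible because replicate numbers were given in accession order and pair no lines.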
